A study of Mus musculus with 20 samples.

Results

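Transcripts of 44 cell cycle and proliferation genes were followed in microglia and astrocytes sorted from injured and uninjured mouse brain. The genes were chosen by symbol, with earlier results of these data known. All 44 were found among the 39017 gene identifiers of the count table. They fall into 18 genes of S phase and 26 genes of G2 and mitosis (G2/M). The samples were 20 libraries of total RNA, 5 for each of sham microglia, FPI microglia, sham astrocytes and FPI astrocytes, each from the cells of a single animal. All donors were adult male mice, labelled C57BL/6, which were C57BL/6J and 3 to 4 months old by the study's methods, taken 7 days after lateral fluid percussion injury (FPI), in which a pulse of fluid strikes the exposed dura, or after sham injury, in which mice had the craniectomy and were attached to the device with no pulse. Microglia were sorted from the forebrain on the injured side as CD11b+ cells of intermediate CD45 and astrocytes by ACSA-2, and injured mice entered the study only when they were slow to right themselves. The comparison asks whether genes used in dividing cells changed 7 days after injury in either cell type, and whether S phase and G2/M genes did so alike.

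Cells copy their DNA in S phase, when origins are licensed by Cdc6 and Cdt1, unwound by the helicase that Mcm2 to Mcm7 form, and copied with the help of the sliding clamp Pcna and of the enzymes Rrm2, Tyms and Tk1, which make nucleotides. They divide it in mitosis, which cyclin B with Cdk1 starts and which needs Top2a to untangle chromosomes, centromere proteins and kinesins to move them, and the ligase cofactor Cdc20 to end it. S phase genes are read under E2F factors, whereas many G2/M genes carry CCAAT boxes and a cell cycle homology region (CHR), where NF-Y and the MuvB complex with B-Myb and Foxm1 bind. Microglia renew themselves in the adult brain and divide after injury, and most astrocytes of the adult brain do not divide.

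Libraries held 5623349 to 13110857 counts on genes. In microglia the G2/M genes together took 272 to 2133 reads per library and the S phase genes 909 to 2717, so that many single genes rested on few reads. Microglia libraries carried microglia markers at sums of 18143 to 30283 CPM (counts per 1000000, on totals scaled by the TMM method) and astrocyte markers at 305 to 692 CPM. Astrocyte libraries carried astrocyte markers at 11034 to 35457 CPM, but also oligodendrocyte markers at 1735 to 18327 CPM and oligodendrocyte precursor markers at 1586 to 2669 CPM. In sham astrocyte replicate 4 the oligodendrocyte sum of 18327 CPM exceeded the astrocyte sum of 11034 CPM. In FPI astrocyte replicate 4 these sums were 11631 and 12819 CPM. In microglia, replicates 4 and 5 bear another series of animal numbers in their library names than replicates 1 to 3, and the sum of 12 monocyte and macrophage markers was 95.9 to 282 CPM in the former and 356 to 747 CPM in the latter. The names of microglia replicates 4 and 5 also end in the A of astrocyte names, not the M of other microglia libraries. Their titles and markers place them with the microglia. The library of FPI astrocyte replicate 5 is named with the suffix of microglia and the number of the animal of FPI astrocyte replicate 2, but its title, cell type label and markers place it with the astrocytes. The 5 FPI astrocyte libraries may thus come from 4 animals, whereas the tests took them as 5 samples. With the reads of replicates 2 and 5 summed as 1 sample, edgeR called 0 members in astrocytes, as it did with all 5. Since 0 were called to begin with, that fit could not show how a shared animal bears on the values. By their names 3 animals gave both a microglia and an astrocyte library. In sorted bulk RNA, more cycling cells and more of such transcripts per cell cannot be told apart.

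The promoters of the members were compared first, because the lists differ in the motifs that their windows carry. Windows from 250 bases before to 50 bases after the RefSeq start (GRCm38.p6) were found for 37 of the 44 genes and for 27025 genes in all. The letters searched, on both strands, were CCAAT for the CCAAT box, TTTGAA for the CHR, and TTTCCCGC, TTTCGCGC, TTTGGCGC or TTTGCCGC for E2F, whose matches may overlap each other. The CCAAT box was in 19 of 22 G2/M windows (86.36%), in 9 of 15 S phase windows (60%) and in 37.92% of all windows. The CHR was in 16 of 22 G2/M windows (72.73%) and in 2 of 15 S phase windows (13.33%), against 18.11% of all windows. Windows with both motifs were 16 of 22 for G2/M genes and 2 of 15 for S phase genes, against 7.123% overall. The E2F letters were in 6 of 15 S phase windows (40%), in 1 of 22 G2/M windows (4.545%), that of Cdk1, and in 2.316% of all windows. These matches describe the letters in the windows and do not show binding.

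**Figure D1:**
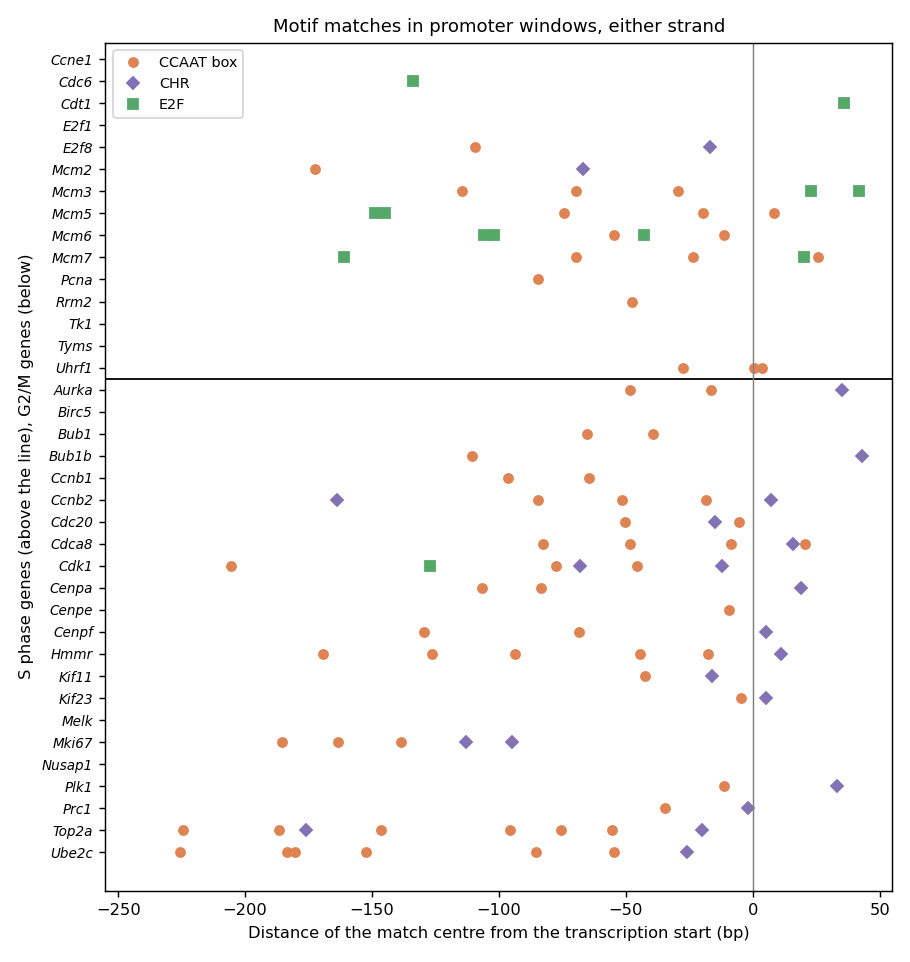
Positions of CCAAT box, CHR and E2F letters in the promoter windows of 37 of the 44 genes, with the distance of each match from the RefSeq start in base pairs on the horizontal axis and 1 gene per row. CHR matches are in 16 of 22 G2/M windows and in 2 of 15 S phase windows, and E2F matches are in 6 S phase windows and 1 G2/M window.

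The 200 bases before the start are printed below for a pair of G2/M genes that rose in FPI microglia and a pair of S phase genes that were not called there, all of them free of annotated exons. Capitals mark every match to the CCAAT, CHR or E2F letters. Top2a (DNA topoisomerase II alpha) and Mki67 (Ki-67, a nuclear protein of cycling cells) carried 5 and 3 CCAAT boxes and 2 CHR matches each. Cenpe, which was also called higher in FPI microglia, carried 1 CCAAT box and no CHR in its 200 bases, not printed here. Cenpf, the next gene by p there, carried 2 CCAAT boxes and no CHR before the start. Mcm3 and Mcm5 are subunits of the replicative helicase. Mcm3 carried 3 CCAAT boxes and no CHR here, with its E2F matches lying after the start, and Mcm5 carried 2 overlapping E2F matches and 2 CCAAT boxes.
Top2a, chr11:99024190-99024389, minus strand: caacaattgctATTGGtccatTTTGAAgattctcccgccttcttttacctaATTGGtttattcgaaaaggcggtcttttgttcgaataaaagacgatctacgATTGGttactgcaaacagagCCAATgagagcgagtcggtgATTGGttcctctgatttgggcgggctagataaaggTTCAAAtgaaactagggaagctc
Mki67, chr7:135716380-135716579, minus strand: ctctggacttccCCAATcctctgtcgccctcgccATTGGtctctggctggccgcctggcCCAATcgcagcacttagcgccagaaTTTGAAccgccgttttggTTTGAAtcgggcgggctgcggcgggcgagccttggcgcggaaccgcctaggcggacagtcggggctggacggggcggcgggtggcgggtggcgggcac
Mcm3, chr1:20820313-20820512, minus strand: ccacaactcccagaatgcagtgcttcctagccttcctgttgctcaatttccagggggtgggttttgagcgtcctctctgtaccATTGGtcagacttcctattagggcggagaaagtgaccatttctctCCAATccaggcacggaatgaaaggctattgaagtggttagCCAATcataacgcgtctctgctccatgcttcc
Mcm5, chr8:75109309-75109508, plus strand: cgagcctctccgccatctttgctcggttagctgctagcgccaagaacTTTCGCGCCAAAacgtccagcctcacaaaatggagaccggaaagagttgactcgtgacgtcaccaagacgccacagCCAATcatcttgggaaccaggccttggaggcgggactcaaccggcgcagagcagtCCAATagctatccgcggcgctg

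In microglia, G2/M genes were higher after FPI and S phase genes differed less. Of the 26 G2/M genes 18 had enough counts to be tested, and all 18 had a log2 fold change above 0, with a median of 1.53 and a range of 0.33 to 1.90. The median over all 12143 genes tested was -0.01, and 48.7% of them lay above 0. An edgeR quasi-likelihood test with Benjamini-Hochberg adjustment over all genes called 3 of the 18, at an adjusted p below 0.1 and an absolute log2 fold change above 0.6: Top2a, Mki67 and Cenpe. Over all genes tested 2.13% were called higher. At an unadjusted p below 0.05 the count was 11 of 18, against 7.47% of all genes in that direction. The filter on low counts looks at libraries of both groups, so genes low in sham could be tested through their FPI levels. In a fit of every gene with a read, 14 of 26 G2/M genes were higher at that p, as were 1453 of 20485 genes. Of the 14 S phase genes tested 9 were higher and 5 lower, the median was 0.23, and the test called 0, where 2.35% of all genes were called in either direction. In this list 2 had an unadjusted p below 0.05. DESeq2 called 7 members, all of G2/M, and 0 of the S phase genes, where it called 3.23% of all genes. Of the 3 genes that edgeR called, DESeq2 called Top2a and Cenpe, and a fit of all 20 libraries called none (adjusted p = 0.18 for Top2a, 0.18 for Mki67 and 0.17 for Cenpe by edgeR).

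Top2a, on chromosome 11 (98992943 to 99024189, minus strand, GRCm38), was at 2.98, 7.93, 6.97, 9.72 and 4.28 CPM in sham microglia and at 14.5, 32.1, 11.5, 13.2 and 49.3 CPM in FPI microglia. The groups did not overlap, and FPI replicates 2 and 5 were the highest. The means were 6.37 ± 2.74 and 24.1 ± 16.3 CPM (SD, n = 5), and the log2 fold change was 1.90 (SE 0.40, adjusted p = 0.012 by edgeR). Top2a was called in each of 10 fits that left out 1 library, but not in the fit of all 20 libraries or in replicates 4 and 5 alone (adjusted p = 0.12 by edgeR).

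Mki67, on chromosome 7 (135689784 to 135716361, minus strand), was at 9.06, 9.41, 20.8, 12.7 and 4.08 CPM in sham and at 40.7, 77.2, 21.7, 6.42 and 41.4 CPM in FPI microglia. FPI replicate 4 fell within the sham range and the other 4 FPI libraries lay above it. The log2 fold change was 1.73 (SE 0.45, adjusted p = 0.057 by edgeR). Mki67 was called in 4 of the 10 fits without 1 library, and the call was lost without sham replicate 1, 2, 4 or 5 or FPI replicate 1 or 2, the highest adjusted p of these being 0.27. DESeq2 gave it an adjusted p of 0.11 and did not call it.

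Cenpe, on chromosome 3 (135212537 to 135273611, plus strand), encodes a kinesin of the kinetochore that aligns chromosomes. It was at 4.01, 3.33, 2.28, 0.89 and 5.64 CPM in sham and at 12.6, 16.8, 7.30, 3.60 and 13.5 CPM in FPI microglia. As for Mki67, only FPI replicate 4 overlapped the sham libraries. Its log2 fold change was 1.76 (SE 0.47, adjusted p = 0.064 by edgeR), and the call held in 3 of the 10 fits, those without sham replicate 5, FPI replicate 3 or FPI replicate 4.

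The next gene by p was Cenpf, a large kinetochore protein, at 5.17 to 12.6 CPM in sham and 23.3, 37.8, 14.7, 6.73 and 19.3 CPM in FPI microglia. It did not pass the threshold (log2 fold change 1.19, SE 0.36, adjusted p = 0.11 by edgeR). Ccnb2, a B-type cyclin, was the other tested G2/M gene with no overlap between groups, at 0.78 to 1.94 CPM in sham and 2.19 to 6.48 CPM in FPI libraries (log2 fold change 1.76, SE 0.60, adjusted p = 0.18 by edgeR). Groups did not overlap, with FPI higher, in 2 of the 18 genes, against 2.11% of all genes tested. The other members with an unadjusted p below 0.05 were the spindle factor Tpx2, the kinesins Kif11 and Kif20a, the spindle midzone protein Prc1, and the kinases Cdk1 and Plk1, at log2 fold changes of 1.30 to 1.83. The remaining 7, Aurkb, Bub1b, Ccna2, Cenpa, Hmmr, Kif23 and Nusap1, ranged from 0.33 for Nusap1, which bundles spindle microtubules, to 1.55 for Cenpa, the centromeric histone.

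The 8 G2/M genes left out by the filter on low counts were Ccnb1, Birc5, Bub1, Aurka, Cdc20, Ube2c, Cdca8 and Melk. A fit of every gene with a read placed all 26 G2/M genes above 0 in microglia, with a median log2 fold change of 1.52, where 48.3% of all 20485 genes so fitted lay above 0. Chosen after the values were seen, the widest ratios rested on few sham reads. Melk, a mitotic kinase, had 10 reads over the 5 sham libraries and 98 over the 5 FPI libraries. Ube2c, a ubiquitin-conjugating enzyme of mitotic exit, had 11 and 95. Ccnb1, cyclin B1, had 10 and 67, and Cdca8, a subunit of the chromosomal passenger complex, had 14 and 78. In these 4 genes the FPI reads came mainly from replicates 2 and 5. Aurka, a spindle pole kinase, was at 9.31 CPM in FPI replicate 5 and at 0.12 to 1.57 CPM in the other FPI libraries, inside or below its sham range of 0.39 to 3.10 CPM. Birc5, Bub1 and Cdc20 had 36, 27 and 38 sham reads and 40, 62 and 71 FPI reads.

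**Figure D2:**
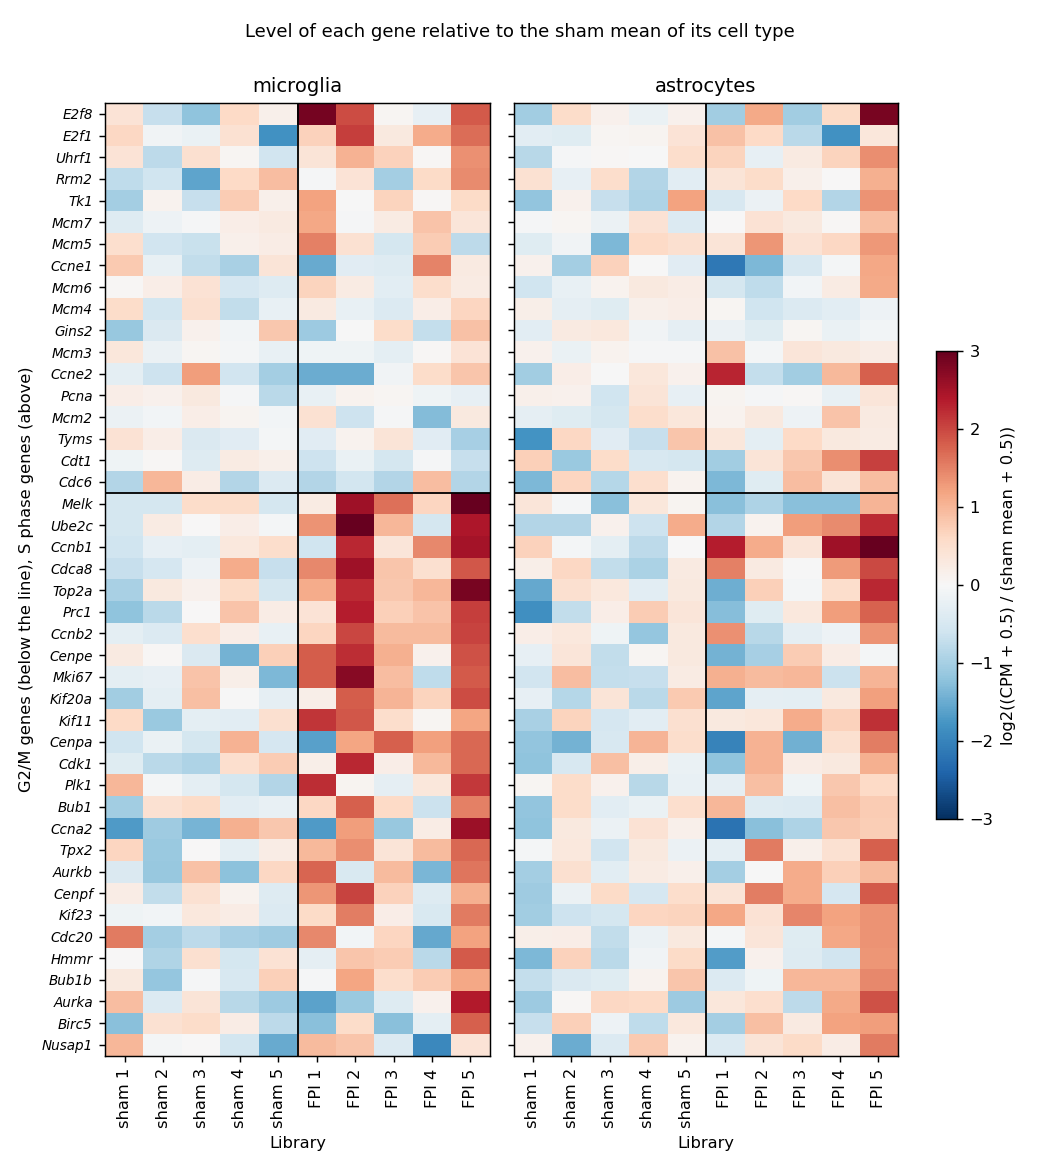
Level of each of the 44 genes in each library, as log2 of (CPM + 0.5) over (the sham mean of the same cell type + 0.5), with genes in rows and libraries in columns. The G2/M rows are mostly red in FPI microglia 2 and 5 and in FPI astrocyte 5, while the S phase rows are mixed.

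In S phase genes of microglia the smallest p belonged to Mcm7, a helicase subunit, at 10.9, 13.02, 14.2, 16.8 and 17.5 CPM in sham and 33.03, 14.2, 17.2, 26.5 and 18.8 CPM in FPI libraries. The groups overlapped, and the log2 fold change was 0.60 (SE 0.25, adjusted p = 0.31 by edgeR). Next was E2f1, an activator of S phase transcription, at 0 to 2.20 CPM in sham and 2.31, 6.84, 1.65, 3.29 and 5.13 CPM in FPI libraries (log2 fold change 1.58, SE 0.71, adjusted p = 0.39 by edgeR). Uhrf1, which carries DNA methylation through replication, had a log2 fold change of 0.89 and Mcm5 one of 0.56, neither past the threshold.

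The groups overlapped for the most abundant S phase genes. Mcm3 was at 64.0 to 95.1 CPM in sham and 60.7 to 100.1 CPM in FPI microglia, with means of 75.03 ± 12.4 and 74.9 ± 15.2 CPM (SD, n = 5) and a log2 fold change of -0.0031 (SE 0.15). Pcna was at 24.5 to 53.1 CPM in sham and 36.7 to 47.3 CPM in FPI libraries, with a log2 fold change of -0.08 (SE 0.18). Cdt1, the licensing factor, had a log2 fold change of -0.42 (SE 0.33), with overlapping groups. E2f8, a repressor of the E2F family that the filter left out, had 26 reads in sham and 133 in FPI libraries, with 7.89 CPM in FPI replicate 1 as its highest level. Cdc6, which loads the helicase, had 25 and 9 reads, and the E-type cyclins Ccne1 and Ccne2 had 37 and 41 reads in sham and 41 and 32 in FPI libraries. The other 7 tested S phase genes, Mcm2, Mcm4, Mcm6, Gins2, Rrm2, Tk1 and Tyms, had log2 fold changes of -0.18 to 0.70, none with an unadjusted p below 0.05.

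**Figure D3:**
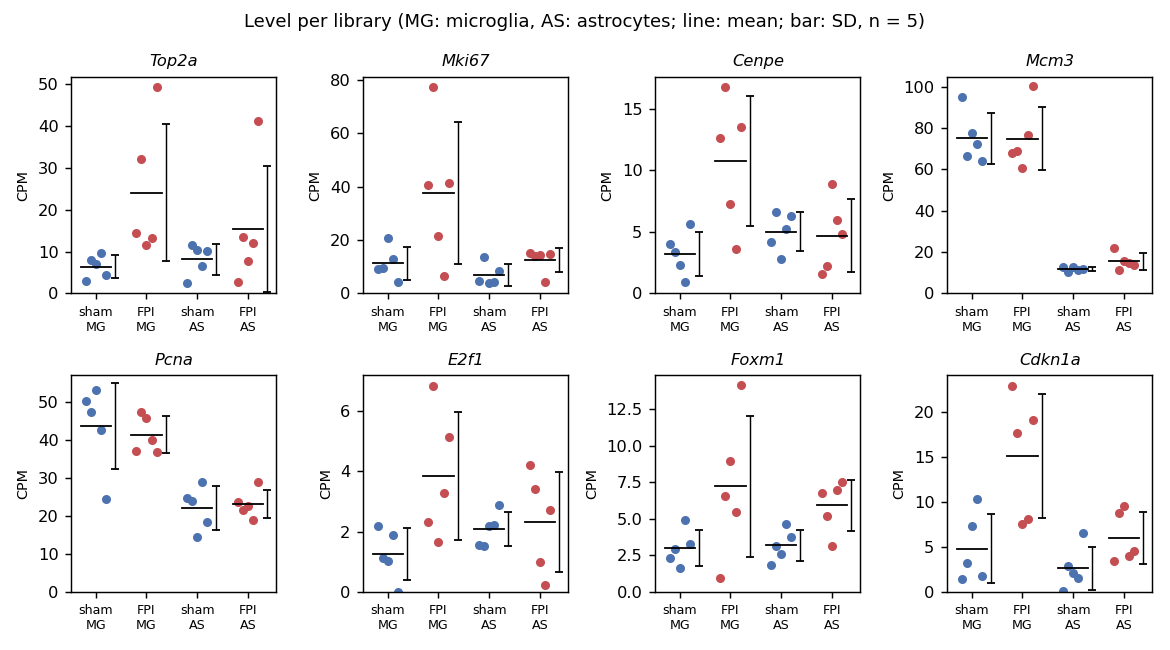
Level in CPM of 8 genes in each library, with the mean as a line and the SD as a bar (n = 5), for microglia (MG) and astrocytes (AS). In microglia all FPI libraries of Top2a lie above sham, whereas those of Mcm3 and Pcna overlap with sham.

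Summed over each list, S phase genes took 239, 192, 224, 199 and 177 CPM in sham microglia and 248, 214, 191, 228 and 253 CPM in FPI microglia. The ranges overlapped, and the ratio of the means was 1.10. Without Mcm3 and Pcna, the most abundant S phase genes, the ratio was 1.26. The sums were then 78.7 to 93.7 CPM in sham and 143, 97.4, 84.6, 111 and 116 CPM in FPI replicates 1 to 5. All but FPI replicate 3 then lay above the sham range. The G2/M genes took 61.8, 42.5, 74.2, 63.03 and 52.9 CPM in sham and 149, 265, 102, 70.3 and 252 CPM in FPI libraries. All but FPI replicate 4, which lay below sham replicate 3, were above the sham range. The ratio of the means was 2.85, and it was 2.50 without Mki67, Top2a and Cenpe. Within replicates 1 to 3 it was 2.89, and within replicates 4 and 5 it was 2.78. For S phase genes these within-series ratios were 1.00 and 1.28. G2/M transcripts stood to S phase transcripts as 0.22 to 0.33 in the sham libraries and as 0.60, 1.24, 0.53, 0.31 and 1.00 in FPI replicates 1 to 5.

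The SD of the G2/M sum was 87.8 CPM over the FPI microglia libraries and 11.9 CPM over the sham ones (n = 5). In FPI replicate 5, 24 of the 26 G2/M genes lay above their highest sham library, and in FPI replicate 2 it was 20, where 25.9% and 22.4% of all tested genes did so. The count was 13 in FPI replicate 1, 12 in replicate 3 and 8 in replicate 4, against 25.5%, 21.3% and 19.3% of all genes. Of the 18 S phase genes 7, 3, 1, 5 and 9 lay above their highest sham library in FPI replicates 1 to 5. These counts include members left out by the filter on low counts, whereas the percentages are of tested genes only.

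**Figure D4:**
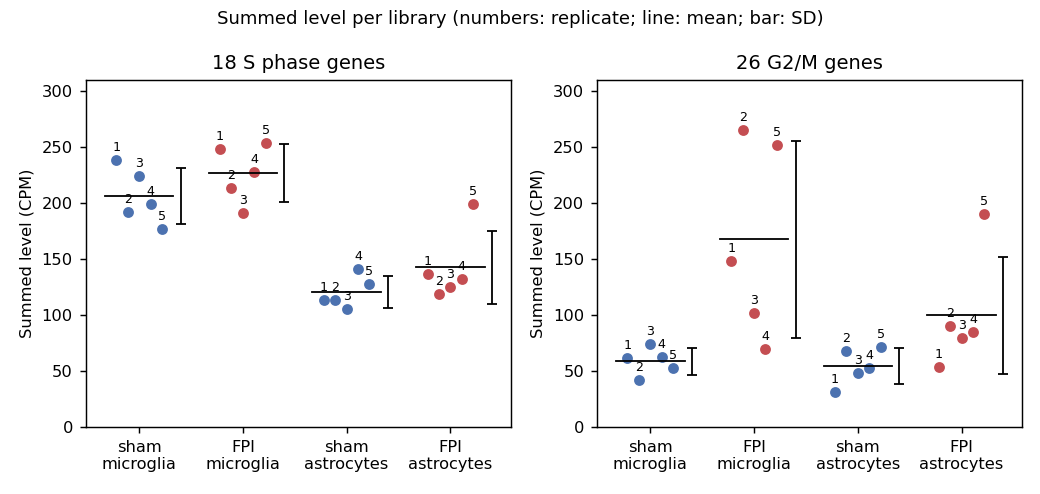
Summed CPM of the 18 S phase genes and the 26 G2/M genes in each library, labelled by replicate number, with the mean as a line and the SD as a bar (n = 5). FPI microglia lie at 70.3 to 265 CPM for G2/M genes against 42.5 to 74.2 CPM in sham, and at 191 to 253 CPM for S phase genes against 177 to 239 CPM in sham.

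Markers of other cells were read in the same libraries. The sum of 10 astrocyte markers was 305 to 463 CPM in sham microglia and 692, 661, 423, 374 and 365 CPM in FPI replicates 1 to 5. Of these 10 markers 9 were higher after FPI and 1, Gfap, was called. Oligodendrocyte precursor markers summed to 14.0 to 17.0 CPM in sham and to 38.9, 38.1, 21.1, 23.9 and 14.4 CPM in FPI microglia. Of 4 precursor markers tested 3 were higher and 1, Cspg4, was called. Pdgfra, chosen after its values were seen, was at 0 to 1.74 CPM in FPI microglia. The highest G2/M sums were those of FPI replicates 2 and 5, at 265 and 252 CPM. For the sums of astrocyte and precursor markers replicate 2 was above the sham range and replicate 5 inside it. For the sum of oligodendrocyte markers both replicates were above the sham range. Oligodendrocyte markers summed to 140 to 200.4 CPM in sham and to 209, 302, 206, 251 and 218 CPM in FPI microglia, all above sham, with 6 of 7 tested higher. Of the 10 microglia markers 8 were lower after FPI, 5 of them at an unadjusted p below 0.05, and edgeR and DESeq2 called 0. The 12 monocyte and macrophage markers summed to 95.9 to 701 CPM in sham and to 747, 697, 356, 153 and 282 CPM in FPI microglia, with 4 of 9 tested markers higher, and Ly6c2 at 0 in all 10 libraries. The 9 progenitor and neuroblast markers of the subventricular zone summed to 2.55 to 10.4 CPM in sham and 1.75 to 9.23 CPM in FPI microglia, and the 8 T cell markers to 0 to 7.24 and 0 to 3.98 CPM, with Cd3e, Cd3g and Cd8a at 0 throughout. The part of these cells in the G2/M result was not tested.

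Other cell cycle genes were read from 4 further lists. Of 30 other G2/M genes 24 were tested in microglia, 17 higher and 7 lower, with a median log2 fold change of 0.39. At an unadjusted p below 0.05, 7 were higher and 2 lower, and 1 was called, where 2.13% of all genes were called higher. It was Gas2l3, a cytoskeletal linker of cytokinesis, at 6.34, 4.95, 10.7, 11.6 and 16.1 CPM in sham and 20.4, 23.6, 24.0, 25.5 and 19.7 CPM in FPI microglia. The groups did not overlap (log2 fold change 1.20, SE 0.28, adjusted p = 0.027 by edgeR). Smc4, a subunit of condensin, was at 0.62, and Ctcf, which organizes chromatin loops, at -0.34, and neither passed.

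Of 30 other S phase genes 22 were tested, 14 higher and 8 lower, with a median of 0.20, and 2 were higher at an unadjusted p below 0.05, of which 1 was called. Atad2, a chromatin-bound ATPase, was at 11.7 to 24.8 CPM in sham and 32.4, 34.7, 30.0, 21.9 and 36.6 CPM in FPI libraries, with only FPI replicate 4 inside the sham range (log2 fold change 0.72, SE 0.21, adjusted p = 0.095 by edgeR). Clspn, a mediator of the replication checkpoint, did not overlap between groups, at 0.39 to 3.31 and 4.83 to 8.10 CPM, and missed the threshold (log2 fold change 1.67, SE 0.51, adjusted p = 0.11 by edgeR). Ubr7, a ligase with a PHD finger, was at 0.46.

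Genes that drive or restrain entry into the cycle made up the other two lists. Of 20 G1 cyclins, kinases and cell cycle transcription factors 17 were tested, 11 higher and 6 lower, with a median of 0.06, and the edgeR test called 0, with 2 at an unadjusted p below 0.05, and DESeq2 called 0. Foxm1, an activator of G2/M genes, was at 1.60 to 4.92 CPM in sham and 0.97, 6.59, 8.94, 5.48 and 14.2 CPM in FPI microglia (log2 fold change 1.26, SE 0.54, adjusted p = 0.35 by edgeR). Its FPI replicate 1 was the lowest library of all 10. Lin9, a core subunit of MuvB, was at 0.69 with overlapping groups. Of 18 inhibitors 16 were tested, 10 higher and 6 lower, with 1 each way at an unadjusted p below 0.05, and 1 was called. It was Cdkn1a, the kinase inhibitor p21, at 1.42, 3.25, 7.31, 10.3 and 1.75 CPM in sham and 23.0, 17.7, 7.53, 8.14 and 19.2 CPM in FPI microglia. FPI replicates 3 and 4 lay inside the sham range, and FPI replicates 1, 2 and 5 above it (log2 fold change 1.63, SE 0.47, adjusted p = 0.091 by edgeR). Gadd45g, a growth arrest gene, was lower, at 13.6 to 27.8 CPM in sham and 5.22 to 13.6 CPM in FPI libraries with a slight overlap, and did not pass (log2 fold change -0.86, SE 0.27, adjusted p = 0.14 by edgeR), and Ccng2, an atypical cyclin, was at -0.19. The calls of Atad2 and Cdkn1a each held in 3 of the 10 fits without 1 library, and that of Gas2l3 in all 10. In these 4 lists DESeq2 called Gas2l3, Atad2, Clspn, Cdkn1a and Gadd45g.

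In astrocytes the edgeR test called 0 of the 29 members tested, where 1 of all 13741 genes (0.00728%) was called, and 4 members had an unadjusted p below 0.05. DESeq2 called 1, Ccnb1, where it called 0.214% of all genes. The filter left out 12 G2/M genes (Aurka, Aurkb, Birc5, Bub1, Ccnb1, Ccnb2, Cdca8, Cdk1, Hmmr, Kif23, Melk and Ube2c) and 3 S phase genes (Ccne2, E2f8 and Tk1). Of 14 G2/M genes tested 12 were higher after FPI (median log2 fold change 0.82), and 3 had an unadjusted p below 0.05, where 49.2% of all genes were above 0 and 1.57% were higher at that p. Of 15 S phase genes 12 were higher, with a median of 0.33, and 1 was below that p. The sums were 32.0, 68.3, 48.1, 52.7 and 71.8 CPM in sham and 53.7, 90.4, 79.7, 85.5 and 190 CPM in FPI astrocytes for G2/M genes. All but FPI replicate 1 lay above the sham range, and FPI replicate 5 stood far above the rest. For S phase genes they were 113, 114, 106, 141 and 128 CPM in sham and 137, 119, 125, 133 and 199 CPM in FPI astrocytes, where only FPI replicate 5 was above the sham range.

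The G2/M genes of smallest p in astrocytes were Kif11, Cenpf and Tpx2. Kif11, the kinesin that separates spindle poles, was at 1.30 to 5.03 CPM in sham and 3.79, 3.90, 7.07, 5.12 and 15.4 CPM in FPI libraries (log2 fold change 1.22, SE 0.50, adjusted p = 0.999 by edgeR). Cenpf and Tpx2 were at 1.17 and 1.02, with overlapping groups. Mki67 was at 4.04 to 13.7 CPM in sham and 15.1, 14.0, 14.3, 4.30 and 14.6 CPM in FPI astrocytes, 4 of 5 above the sham range and FPI replicate 4 near its lower end (log2 fold change 0.83, SE 0.42, adjusted p = 0.999 by edgeR). Top2a was at 2.47 to 11.5 CPM in sham and 2.63, 13.6, 7.80, 11.98 and 41.1 CPM in FPI libraries, the last in replicate 5. Cenpe, called in microglia, was at 5.02 ± 1.57 CPM in sham and 4.70 ± 2.95 CPM in FPI astrocytes (SD, n = 5).

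Of the S phase genes Mcm5 had the smallest p in astrocytes, at 2.73, 3.36, 1.14, 5.83 and 5.28 CPM in sham and 4.95, 9.94, 5.12, 5.93 and 9.80 CPM in FPI libraries (log2 fold change 0.96, SE 0.43, adjusted p = 0.999 by edgeR). Mcm3 followed at 0.39, Uhrf1 at 0.71 and Cdt1 at 1.45, all with overlapping groups. Ccnb1, which the filter left out, had 16 reads in sham and 135 in FPI astrocytes, and its FPI levels were 3.90, 1.39, 0.61, 4.53 and 6.91 CPM against 0 to 0.91 CPM in sham. The FPI libraries other than replicate 3 lay above every sham library. A fit of every gene with a read placed 23 of the 26 G2/M genes above 0 in astrocytes, the others being Ccna2, Cenpe and Melk, where 45.6% of all genes so fitted were above 0.

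FPI astrocyte replicate 5 had 25 of 26 G2/M genes and 12 of 18 S phase genes above their highest sham library, against 23.0% of all genes tested. In FPI replicates 1 to 4 the G2/M counts were 6, 10, 8 and 16, against 17.8%, 11.1%, 13.1% and 11.8%. As in microglia, the member counts include genes that were not tested and the percentages do not. FPI astrocyte replicate 5 was the highest of the 10 for Pdgfra and Cspg4, which mark oligodendrocyte precursors, at 97.8 and 799.9 CPM, and for Gpr17 and Tnr, at 203 and 126 CPM against 8.41 to 20.1 and 15.9 to 24.5 CPM in the other FPI astrocytes. It was also the highest for C1ql1, at 8.35 CPM. Its level lay inside the range of the sham libraries for the other 4 of the 9 precursor markers, Olig1, Olig2, Sox10 and Ptprz1, and its sum over the 9 was 2338 CPM. Over all astrocyte libraries the precursor markers summed to 1640 to 2306 CPM in sham and 1586 to 2669 CPM after FPI, with 6 of 8 tested higher, 3 of them at an unadjusted p below 0.05 (Pdgfra, Gpr17 and Tnr), and 0 called by edgeR or DESeq2. For Gpr17 and Tnr the groups did not overlap. Microglia markers summed to 104 to 178 CPM in sham and 124 to 269 CPM after FPI, with 8 of 8 tested higher and 5 at an unadjusted p below 0.05, and edgeR called 0 of them and DESeq2 4. Monocyte and macrophage markers summed to 1.71 to 6.03 CPM in sham and 6.58 to 23.9 CPM after FPI, with no overlap. Oligodendrocyte markers summed to 1735 to 18327 CPM in sham and 3384 to 11631 CPM after FPI, with 6 of 9 tested higher and 0 called. The part of these cells in the astrocyte values was not tested. Within replicates 1 to 3, which leave it out, the ratio of the G2/M sums was 1.51, and within replicates 4 and 5 it was 2.21. Without FPI replicate 5 the log2 fold change of Kif11 was 0.70 and that of Mcm5 was 0.80.

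In astrocytes edgeR and DESeq2 called 0 genes of the 4 further lists, and 3 had an unadjusted p below 0.05 by edgeR. The median log2 fold change was 0.24 over 21 other G2/M genes tested, 0.06 over 23 other S phase genes, 0.19 over 18 G1 cyclins, kinases and transcription factors and 0.04 over 16 inhibitors. Foxm1 was at 1.82 to 4.62 CPM in sham and 6.74, 5.16, 3.17, 6.98 and 7.55 CPM in FPI astrocytes, all but replicate 3 above the sham range (log2 fold change 0.89, SE 0.36, adjusted p = 0.999 by edgeR). Gas2l3 was at 1.49 and Jpt1, a microtubule-associated protein, at 0.72. Ccnd1, the cyclin of G1, was at 0.66 and Cdkn1c, the inhibitor p57, at 1.21. Fen1, the flap endonuclease, Nasp, a histone chaperone, and Ccng1, a target of p53, were at 0.52, -0.17 and 0.29. None of these passed the threshold.

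**Figure D5:**
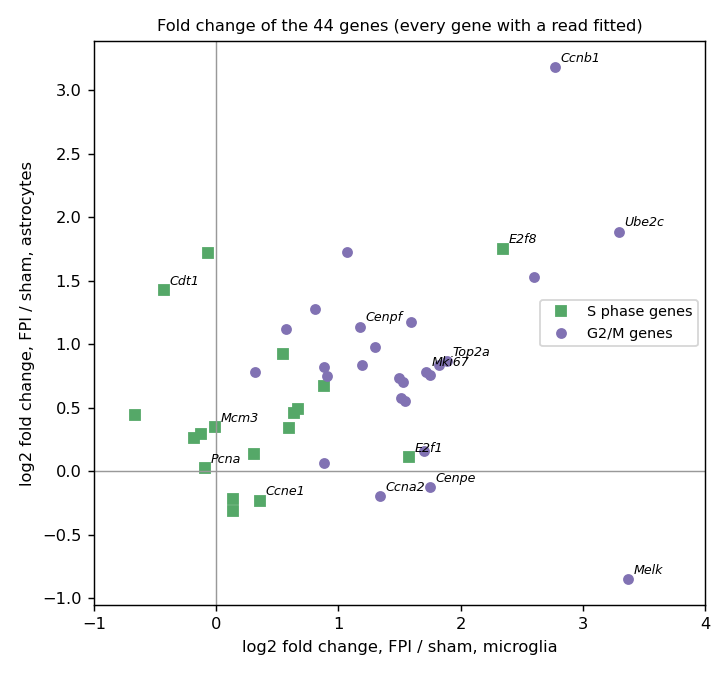
Log2 fold change of FPI over sham for the 44 genes, microglia on the horizontal and astrocytes on the vertical axis, from fits of every gene with a read. All 26 G2/M genes lie right of 0, and 23 of them also lie above 0.

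The difference of the FPI effect between the cell types was tested in a fit of all 20 libraries, which took the libraries as independent. The edgeR test called 0 of the 43 members tested, where 0.199% of 15077 genes were called, DESeq2 called 0, where it called 1.20% of all genes, and 2 members had an unadjusted p below 0.05, as did 7.02% of all genes. The median difference was 0.81 over 25 G2/M genes, 20 of them above 0, and 0.15 over 18 S phase genes, where 51.5% of all genes were above 0. Cenpe, at a log2 difference of 1.86 (SE 0.71, adjusted p = 0.57 by edgeR), had the larger change in microglia. Cdt1, at -1.87 (SE 0.89, adjusted p = 0.71 by edgeR), had the larger change in astrocytes. For Top2a and Mki67 the differences were 0.99 (SE 0.80) and 0.92 (SE 0.73). A larger effect on any of the members in microglia than in astrocytes was therefore not shown.

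The levels in sham mice were compared in the same fit, sham microglia against sham astrocytes, and 10 of the 43 members were called, against 60.9% of all genes tested. Mcm3 was higher in microglia, at 74.4 ± 11.1 against 12.1 ± 1.05 CPM (log2 difference 2.63, SE 0.18, adjusted p = 5.1e-11 by edgeR). Cdt1 was higher in microglia at 3.29 (SE 0.68), Pcna at 0.95 (SE 0.21) and Tk1, thymidine kinase, at 2.15 (SE 0.84). Lower in microglia were Mcm4, at 14.7 ± 5.79 against 24.3 ± 4.41 CPM (log2 difference -0.72, SE 0.25), Rrm2, a subunit of ribonucleotide reductase, at -2.03 (SE 0.72) and Tpx2 at -0.94 (SE 0.44). The other calls were Mcm5, Kif23 and Cenpf, higher in microglia at 1.00, 1.45 and 0.91. With most of all genes called, the adjusted threshold took in Kif23 and Cenpf at an unadjusted p of 0.052 and 0.064. TMM scaling takes most genes as unchanged, so with 60.9% of all genes called the smaller differences may depend on it. Top2a (-0.37, SE 0.57) and Mki67 (0.65, SE 0.52) were not called. Only 4 of the 10 passed a threshold of adjusted p below 0.05 and a log2 difference above 1: Cdt1, Mcm3, Rrm2 and Tk1.

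Per kilobase of exon, the S phase gene with the highest level in sham microglia was Mcm3, at 19.997 CPM per kb, followed by Pcna at 18.1, and the lowest was Cdc6, at 0.081. Among G2/M genes the highest was Mki67, at 1.11 in sham and 3.73 in FPI microglia, and the lowest was Cdca8 in sham microglia, at 0.059 CPM per kb, and Birc5 in FPI microglia, at 0.31 CPM per kb. In sham astrocytes Pcna led the S phase genes at 9.20 CPM per kb and E2f8 was the lowest at 0.098, while Tpx2 led the G2/M genes at 1.07 and Kif23 was the lowest at 0.066. On this scale the G2/M genes stayed at or below 3.73 CPM per kb in every group mean, under Pcna in both cell types. Exons of 14 members overlap another annotated gene, most in Gins2, where 67.3% lie in Gse1 on the opposite strand, and in Kif20a, where 29.3% lie in Cdc23. Whether the counting used strand is not given in the sources used here, so reads of such partners may not be told apart. For Top2a the shared bases were 1.35% of its exons, and Mki67 and Cenpe shared none.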

How the data were processed

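Total RNA of sorted microglia and astrocytes was sequenced from single animals with a stranded kit for picogram inputs. The authors ran bcbio-nextgen, aligned reads to GRCm38.p6 with HISAT2 2.1.0 and deposited counts of reads per gene, whole numbers with no normalization; featureCounts is named in the submitters' processing notes, and its strand setting is not given in the sources used here. Groups came from titles and labels. From these counts the 10 libraries of each cell type were tested with edgeR's quasi-likelihood method (version 4.0.16 in R 4.3.3) after filterByExpr and TMM scaling, with Benjamini-Hochberg adjustment over all genes tested; all 20 libraries were fitted together for the contrasts between cell types. Calls needed an adjusted p below 0.1 and an absolute log2 fold change above 0.6. The SE is the fold change over the square root of its F statistic. Gene models were those of GENCODE M21. With BCV (biological coefficient of variation) 0.32 in microglia and 0.39 in astrocytes, the test on simulated data recovered 61% and 35% of log2 changes of 1, and 83% and 84% of changes of 2, with 16 and 17 false calls. The members and lists were chosen with earlier results of these data known. Members are named where called or among the 4 smallest p of their list and cell type, with the highest and lowest levels per length, and from other lists where called or next by p; any other gene given with values was chosen after its values were seen. Alternatives were DESeq2 1.42.0, other factors, filters and thresholds, covariates and left-out libraries. Single results for 2 marker genes are not reported here.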

Additional observations from a re-analysis of the deposited data

Results flagged for a closer look

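The named genes and list sums were checked in each group, which made 78 groups of 5 libraries. In 6 of them 1 library stood apart from the other 4, by a gap over 0.71 of the range. Chance alone gives about 1 in 20 for independent, normally distributed values. That rate need not hold here, since many counts are low and the 78 groups share genes and libraries. In FPI astrocytes the sum over the G2/M genes was 189.8 CPM in replicate 5 and 53.7 to 90.4 CPM in the others. The sum over the S phase genes was 199.5 CPM in the same library against 119.3 to 137.0 CPM. Kif11 was at 15.42 CPM there against 3.79 to 7.07 CPM, and Jpt1 at 18.95 CPM against 7.33 to 9.63 CPM. Mki67 was lowest in FPI astrocyte replicate 4, at 4.302 CPM against 13.97 to 15.06 CPM. Ccnd1 was highest in sham astrocyte replicate 5, at 19.48 CPM against 5.91 to 9.48 CPM. In 4 of the 6 the library was FPI astrocyte replicate 5, whose name carries a microglia suffix.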

How the results depend on the processing

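In microglia 3 members were called; DESeq2 called 7 (Ccnb2, Cenpe, Cenpf, Melk, Top2a, Tpx2 and Ube2c), an adjusted p below 0.05 with a log2 fold change above 1 called 1, a fit of all 20 libraries called 0, and replicates 4 and 5 alone, a setting chosen after seeing the data, called 0. Leaving out each library in turn gave 1 to 4 calls, with 1 (Top2a) without sham replicate 1, 2 or 4 or FPI replicate 1 or 2. In astrocytes 0 were called and DESeq2 called 1. For sham microglia against sham astrocytes, with 10 called, the stricter threshold gave 4, and at least 10 counts in every library gave 5, with 12 members left to test; leaving out libraries gave 7 to 11. No member was called for the difference of the FPI effect under any alternative run. With the replicate number as a block the calls were 2 in microglia (Cenpe and Top2a), 0 in astrocytes, 0 for the difference and 12 between sham groups; the numbers were not taken as pairs, since same-numbered libraries correlated at -0.07 to 0.09 in microglia and -0.01 to 0.45 in astrocytes, and 1 of 5 and 4 of 5 FPI libraries correlated best with their own number. The median log2 fold change of all 26 G2/M genes was 1.33 to 1.68 in microglia and 0.55 to 1.03 in astrocytes over 13 alternatives; that of the 18 S phase genes was 0.07 to 0.35 in microglia, lowest without FPI replicate 5. Among 35 results for named genes, 672 alternative values kept their direction except in 3: Mcm5 in microglia at -0.0060 and Ccng2 at 0.011 in replicates 4 and 5 alone, and Cdt1 in astrocytes at -0.0084 in replicates 1 to 3 alone. Of the rest 615 kept their side of the threshold, 44 lost it and 10 passed it. The cause was not tested where calls changed. Few reads per gene limit what single G2/M members can show.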
